A study of Mus musculus with 2 samples.

Results

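Mature B cells of the mouse fracture callus were described from 2 libraries of single-cell RNA sequencing, MGJ and MGJ2. Barcodes (a barcode is the tag that marks 1 droplet) were chosen by the counts of 13 genes in them, described next. A member had at least 200 genes, at most 20% mitochondrial UMIs (UMI, unique molecular identifier, 1 count per captured RNA molecule), at least 3 UMIs of Cd79a and Cd79b, at least 2 UMIs of Ms4a1, Ighd, Fcer2a and Cd22, 0 UMIs of Vpreb1, Igll1, Dntt and Rag1, 0 UMIs of Cd3d and Cd3e, and fewer than 100 UMIs of Col2a1 per 10000. This gave 560 mature B barcodes of 21266 that passed the quality limits. In library MGJ, 77 of 13460 barcodes were mature B barcodes, a share of 0.572% (exact 95% interval 0.452 to 0.714%). In library MGJ2, 483 of 7806 were, a share of 6.19% (5.66 to 6.74%).

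The calluses came from wild-type mice with a femoral fracture, and were digested with enzymes into single cells and captured by droplet (10x Genomics Chromium, 3′ chemistry, V3). The design names calluses taken at 10 days (n = 5 mice) and 20 days (n = 5 mice) after fracture. The labels gave neither library a day, and no barcode could be traced to a mouse, so each library is 1 sample. The libraries are therefore reported side by side, with no comparison of days and no test between them.

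B lymphocytes arise in the bone marrow, where pro-B and pre-B cells rearrange their heavy and light chain genes. A cell with a working receptor leaves as an immature B cell and becomes a mature, naive B cell that carries IgM and IgD on its surface. The receptor signals through the partner chains CD79A and CD79B, and a mature B cell presents the antigen it takes up on MHC class II to helper T cells. Callus tissue lies against opened marrow and also holds blood, so B cells at several of these stages can be captured with it.

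The promoters of 4 genes on which the results turn are shown first, as the 150 bases before the RefSeq transcript start on GRCm38.p6. Vpreb3 and Blnk hold the octamer ATGCAAAT (or its reverse complement ATTTGCAT), the letters bound by the factors Oct-1 and Oct-2, the second of which is encoded by Pou2f2. H2-Aa and H2-Eb1 hold CTGATTGG, letters of the Y box of MHC class II promoters. Capitals mark the motif, and each sequence reads 5′ to 3′ along its gene.
Vpreb3, chr10:75948150-75948299, plus strand: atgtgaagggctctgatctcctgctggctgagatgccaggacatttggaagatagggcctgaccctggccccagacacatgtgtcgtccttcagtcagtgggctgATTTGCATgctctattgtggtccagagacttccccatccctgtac
Blnk, chr19:40994222-40994371, minus strand: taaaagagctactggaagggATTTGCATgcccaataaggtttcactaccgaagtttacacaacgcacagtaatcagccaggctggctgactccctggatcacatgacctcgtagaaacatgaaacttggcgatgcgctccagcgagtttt
H2-Aa, chr17:34287824-34287973, minus strand: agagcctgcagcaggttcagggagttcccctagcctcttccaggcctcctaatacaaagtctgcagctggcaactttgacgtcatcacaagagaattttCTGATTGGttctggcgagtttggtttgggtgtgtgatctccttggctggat
H2-Eb1, chr17:34305717-34305866, plus strand: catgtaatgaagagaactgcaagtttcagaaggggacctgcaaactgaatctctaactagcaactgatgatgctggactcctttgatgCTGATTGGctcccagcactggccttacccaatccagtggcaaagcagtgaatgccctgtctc

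The Y box began 51 bases upstream of the start of H2-Aa and 62 bases upstream of that of H2-Eb1. The octamer began 45 bases upstream of the start of Vpreb3 and 130 bases upstream of that of Blnk, in both on the opposite strand. Over windows of 300 bases (250 before to 50 after the start) on both strands, the octamer was in the promoters of 1.97% of all 27025 genes of the RefSeq table, and the Y box letters in 4.70%. Of the 110 genes with a promoter in the table among the lists used here other than those for markers of other cells, 5 held the octamer (Blnk, Prkcb, Ccr6, Il4ra and Vpreb3). The Y box letters were in 3 of 8 antigen presentation genes (H2-Aa, H2-Eb1 and H2-Oa), and were searched for after the levels of these genes had been seen. A match describes the letters of a window and does not show that a factor is bound there.

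MGJ held 135304426 UMIs over 14295 barcodes and MGJ2 held 61130834 UMIs over 8009. Of these, the mature B barcodes held 271096 and 2119073 UMIs. Their median was 2178 UMIs in MGJ (range 1307 to 19662) and 3183 UMIs in MGJ2 (range 930 to 42057), so single barcodes are shallow and most values below are sums over barcodes. Levels are given in CPM (UMIs of a gene per 1000000 UMIs of the set), ratios are ratios of CPM, and every interval is a 95% interval that covers counting error only. The libraries shared 19 barcode sequences, 1 of which was a mature B barcode of MGJ2.

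Because the rule used the gate genes, their levels are a description of the choice. Ms4a1, which encodes the B-cell surface protein CD20, was in 59 of the 77 barcodes in MGJ and in 350 of the 483 in MGJ2. Ighd, the constant region of IgD, was in 51 and 438 barcodes. Fcer2a, which encodes the low-affinity IgE receptor CD23 of follicular B cells, was in 6 and 94, and Cd22, an inhibitory co-receptor, in 7 and 95. The second gate therefore rested mainly on Ms4a1 and Ighd.

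The barcodes just inside and just outside the rule differed in kind from gate to gate. Barcodes that met every other gate but had no UMI of the second gate (75 in MGJ and 69 in MGJ2) carried Igkc, the kappa light chain constant region, at 41588 and 79557 CPM, and Jchain, which encodes the joining chain of secreted antibody, at 4459 and 12610 CPM. These levels are sums over the barcodes and do not show how many of them carried either gene. The same barcodes had Vpreb3 at 1302 and 587 CPM, against 516 and 252 CPM over all mature B barcodes. Barcodes with exactly 2 UMIs of the second gate, just inside, had 3828 and 7113 CPM of Igkc, and 0 and 1466 CPM of Jchain. Over all mature B barcodes of MGJ2, 407 of 424 Jchain UMIs were in 1 barcode. Barcodes that missed only because of 2 or more UMIs of Vpreb1, Igll1, Dntt and Rag1 numbered 6 and 64, and had Cd74 at 108 and 753 CPM. The T cell gate alone left out 0 and 5 barcodes, and the Col2a1 limit alone left out 4 and 1.

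Genes of other cell types were then counted. T cell markers (Cd3d, Cd3e, Cd3g, Trac, Trbc2 and Lck) summed to 2 UMIs in the mature B barcodes of MGJ and 20 UMIs in those of MGJ2, and Cd3d and Cd3e are at 0 by the rule. Neutrophil markers (S100a8, S100a9, Retnlg, Ly6g and Ngp) had at least 1 UMI of each gene. Their sum had a median of 6.17 and 4.01 UMIs per 10000 in a mature B barcode, but reached 3348 and 3170.4 per 10000 in the highest. A single barcode held 5569 of the 7439 UMIs of S100a8 and S100a9 in MGJ, and 1 held 1892 of the 1984 Col10a1 UMIs in MGJ2. The members with more than 50 UMIs per 10000 of 7 neutrophil, macrophage and erythrocyte genes numbered 7 in MGJ and 33 in MGJ2. Results were also computed without them, and the counts of gene lists that changed are given beside each list below.

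Compared with all other barcodes of the same library, most compared genes of several lists were at least 2-fold higher. With gate genes left out, these were 5 of 5 receptor genes in each library. Transcription factors had 14 of 16 in MGJ and 13 of 16 in MGJ2, and receptor signalling 11 of 12 and 7 of 12. Antigen presentation had 10 of 12 and 9 of 13, with 1 lower in each. Migration had 7 of 9 and 6 of 10 (8 and 7 without the members rich in genes of other lineages). Transcription factors and migration each had 1 lower gene in MGJ2. Of 7918 genes compared in MGJ, 26.8% were at least 2-fold higher and 18.1% at least 2-fold lower. In MGJ2, 15.2% of 7883 genes were at least 2-fold higher and 14.3% at least 2-fold lower. A gene was compared when its mean level over both sets was at least 10 CPM. Genes with at least 50 UMIs, and a UMI in at least 20% of mature B barcodes, were ranked by this ratio. Gate genes and immunoglobulin V, D and J segments were left out of the ranking. Of the ranked genes, Fcmr (chr1:130865669-130880791, plus strand, GRCm38), which encodes the receptor for the Fc part of IgM, had the highest ratio in both libraries. It stood at 203 CPM against 0.389 CPM in MGJ (ratio 521, interval 350 to 777) and at 204 against 1.98 CPM in MGJ2 (ratio 103, interval 83.9 to 128). Behind it in MGJ came Iglc2, Iglc3, Fcrla, Spib and Ighm, at ratios from 115 to 260. In MGJ2, Bank1, Cxcr5, H2-DMb2, Scd1 and Gm15675 followed, at ratios from 34.9 to 52.3. These lists describe the chosen barcodes, since the comparison set holds every other cell type of the callus.

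Scd1 (chr19:44394455-44407879, minus strand), a desaturase of fatty acid synthesis, stood in the same list. Its level was 656 CPM in mature B barcodes of MGJ2 (1391 UMIs, in 395 of 483 barcodes, at most 14 UMIs in 1), 15.3 CPM in all other barcodes and 1.45 CPM in T cells (barcodes with at least 2 UMIs of Cd3d and Cd3e and none of Cd79a or Cd79b, 181 in MGJ and 669 in MGJ2). In MGJ it stood at 247 CPM in mature B barcodes and at 1.21 CPM in T cells. No single barcode carried these sums.

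The chains of the receptor itself came next. Ighm, the heavy chain constant region of IgM, stood at 3036 CPM in mature B barcodes against 1728 CPM in pro-B and pre-B barcodes of MGJ, and at 3234 against 3232 CPM in MGJ2. Pro-B and pre-B barcodes were those with at least 3 UMIs of Cd79a and Cd79b, at least 2 UMIs of Vpreb1, Igll1, Dntt and Rag1 and no Cd3d or Cd3e, 100 barcodes in MGJ and 242 in MGJ2. Ighm was thus 1.76-fold higher in mature B barcodes of MGJ (1.60 to 1.93), and in MGJ2 the interval of its ratio, 0.967 to 1.04, included equal levels. Igkc stood at 4463 against 455 CPM and at 3856 against 738 CPM, ratios of 9.82 and 5.22. In MGJ2, 1 mature B barcode held 1432 Igkc UMIs and the next highest 341, and both are part of this level. Iglc2, a lambda light chain constant region, stood at 561 against 93.1 CPM and at 579 against 221 CPM, ratios of 6.02 and 2.62. Of the 5 receptor genes compared, 4 were at least 2-fold higher in MGJ and 2 in MGJ2, with median ratios of 5.35 and 1.73. In MGJ2, these were Igkc and Iglc2, and the lambda genes Iglc1 and Iglc3 were less than 2-fold higher. Light chains were therefore at higher levels than in the earlier cells in both libraries, while the heavy chain of IgM was higher in one of them.

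Each B cell is known to use a kappa or a lambda light chain, and the barcodes were sorted by the chain with more UMIs. In MGJ, 64 barcodes had more Igkc, 11 had more Iglc1, Iglc2 and Iglc3, 1 was tied and 1 had neither. In MGJ2, the numbers were 401, 65, 10 and 7. Lambda barcodes made up 14.7% of those decided in MGJ (7.56 to 24.7%) and 13.9% in MGJ2 (10.9 to 17.4%). Kappa barcodes had a median of 15 Igkc UMIs in MGJ and 12 in MGJ2. Lambda barcodes had a median of 14 and 10 lambda UMIs. The separation of the chains was incomplete, since both were detected in 50 of 77 and 289 of 483 barcodes.

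The lambda chain in kappa barcodes was mostly low, with a median of 1.5 UMIs in MGJ and 1 in MGJ2. Among the 74 and 420 barcodes with at least 5 light chain UMIs, the minor chain was at most 10% of them in 42 and 207. T cells, which should lack both chains, had at least 1 Igkc UMI in 4.97% and 19.1% of barcodes and at least 1 lambda UMI in 0% and 1.05%, at medians of 3519 and 5470 UMIs. Mature B barcodes had a lambda UMI in 75.3% and 65.4%, so these shares stood above those in T cells in spite of lower depth. Iglc2 and Iglc3 are near-identical in sequence, and the way reads were divided between them was not stated. Their sum with Iglc1 is used for that reason.

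**Figure D1:**
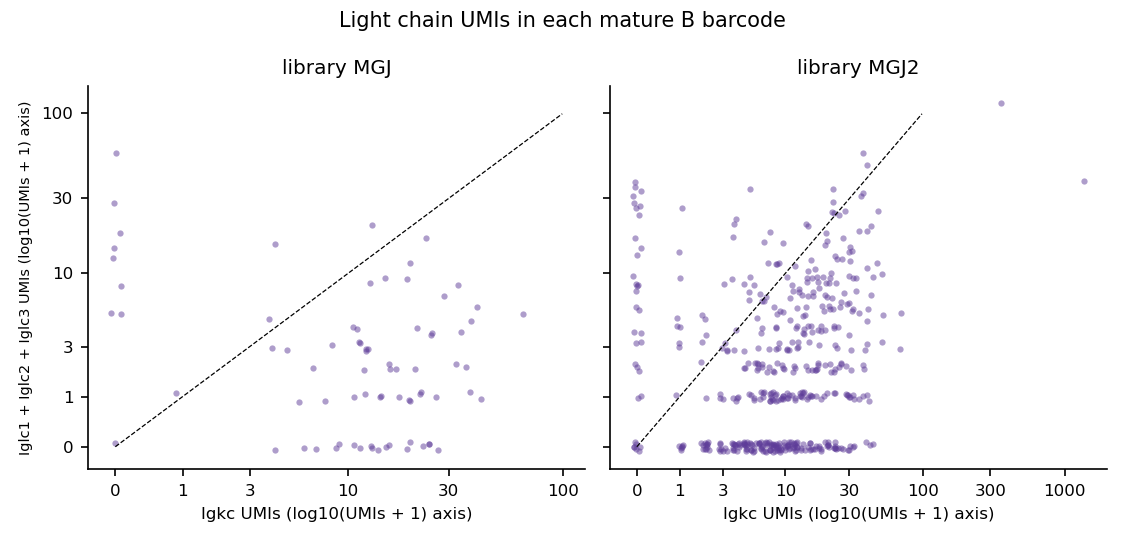
UMIs of Igkc (horizontal axis) and of Iglc1, Iglc2 and Iglc3 together (vertical axis) in each mature B barcode, 1 point a barcode with a small random shift, both axes log10(UMIs + 1), and the dashed line marking equal counts. In MGJ, 64 points lie below the line and 11 above it, and in MGJ2 401 lie below and 65 above, with the barcode of 1432 Igkc UMIs at the far right.

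Antigen presentation genes were next compared with the earlier B cells. In MGJ, 15.4% of 7984 genes compared were at least 2-fold higher in mature B barcodes and 14.5% at least 2-fold lower. In MGJ2, 10.5% of 8098 genes were at least 2-fold higher and 14.5% at least 2-fold lower. Of the antigen presentation list, 11 of 12 compared genes were at least 2-fold higher in MGJ and 12 of 12 in MGJ2. The median ratio of the list was 7.86 and 19.6, beside 0.992 and 0.932 over all genes compared. None of the genes of this list was used to choose either set.

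Cd74, the invariant chain that guides MHC class II through the cell, stood at 5898 CPM in mature B barcodes and 212 CPM in pro-B and pre-B barcodes of MGJ. In MGJ2 it stood at 10062 and 327 CPM. Its ratio was 27.8 (23.0 to 33.9) and 30.8 (28.5 to 33.3), and it was detected in 75 of 77 and 476 of 483 mature B barcodes. H2-Aa, whose promoter is printed above, is the alpha chain of the class II molecule H2-A, and stood at 1472 against 74.9 CPM in MGJ and at 3496 against 73.9 CPM in MGJ2. H2-Eb1, the beta chain of H2-E, stood at 1121 against 40.2 CPM and at 2310 against 44.1 CPM, ratios of 27.9 and 52.4. H2-DMb2, a chain of the peptide-loading helper H2-DM, stood at 103 against 1.83 CPM in MGJ, where the pro-B and pre-B barcodes held 1 UMI, and at 232 against 4.46 CPM in MGJ2, a ratio of 52.0 (27.2 to 114).

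Regulators and partners of class II followed the same order at lower levels. Ciita, the activator that switches class II genes on, stood at 40.6 against 3.65 CPM in MGJ and at 63.2 against 6.45 CPM in MGJ2. H2-Ob, a chain of the H2-O protein that restrains peptide loading, had a lower ratio of 2.21 and 3.39. Cd86, which encodes a co-stimulator of T cells, stood at 194 against 8.43 CPM in MGJ2 (ratio 23.1) and at 48.0 against 11.0 CPM in MGJ (ratio 4.38, interval 1.55 to 14.0). Cd40, the receptor for help from T cells, was 4.04-fold and 2.55-fold higher. H2-DMb1 was the member that was not at least 2-fold higher in MGJ, with 4 UMIs and a ratio of 1.35 (0.280 to 5.68).

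Macrophages and dendritic cells also make class II, so their markers are given beside this result. Macrophage markers (C1qa, C1qb, Lyz2, Csf1r and Adgre1) summed to 1206 CPM in mature B barcodes of MGJ and 1508 CPM in those of MGJ2, with a median of 0 UMIs per barcode in both. Dendritic cell markers (Siglech, Itgax, Flt3, Xcr1 and Ccr9) summed to 2 and 65 UMIs. Without the members rich in genes of other lineages, macrophage markers stood at 339 and 270 CPM, and the ratio of Cd74 to pro-B and pre-B barcodes was 34.1 and 33.9.

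**Figure D2:**
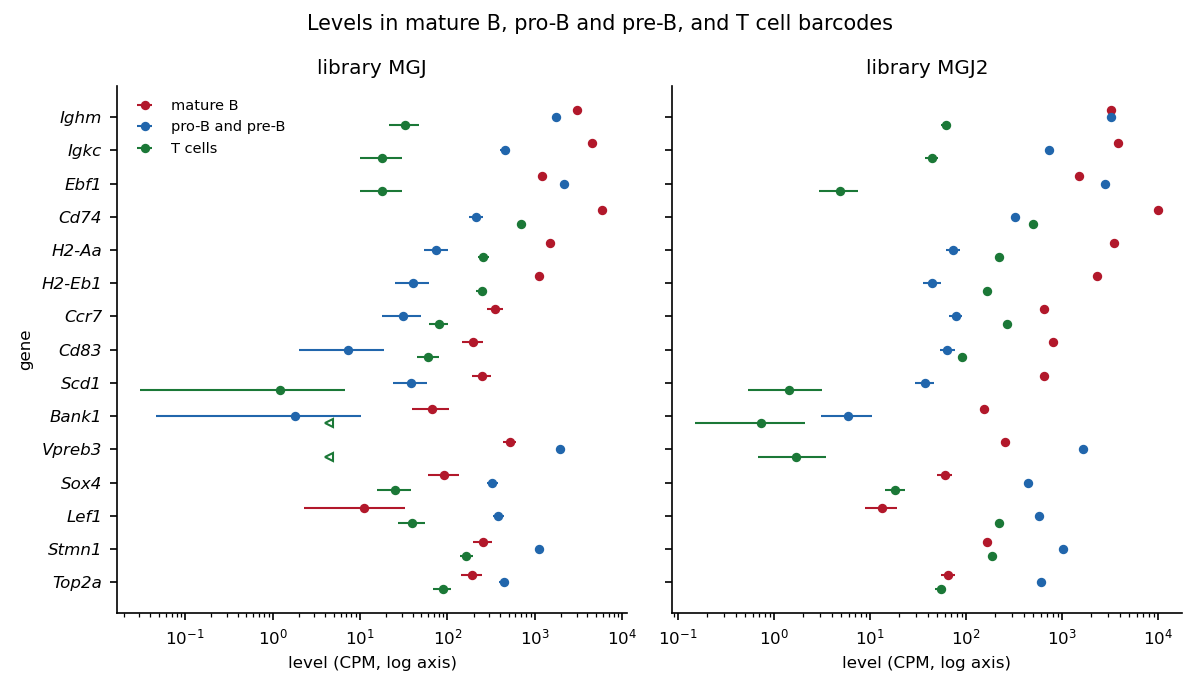
Levels in CPM (log axis) of 15 genes in mature B barcodes (red), pro-B and pre-B barcodes (blue) and T cell barcodes (green) of each library, with exact Poisson 95% intervals as lines, and open triangles at the upper limit where a set had 0 UMIs. Cd74, H2-Aa and H2-Eb1 are highest in mature B barcodes in both libraries (Cd74 at 5898 and 10062 CPM), and Vpreb3, Sox4, Lef1, Stmn1 and Top2a are highest in pro-B and pre-B barcodes.

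Genes of the early and transitional stages were lower in mature B barcodes than in pro-B and pre-B barcodes. Of 9 such genes compared in MGJ, 8 were at least 2-fold lower, and in MGJ2 8 of 8 were, with median ratios of 0.249 and 0.146 (0.266 in MGJ with genes at 0 UMIs set at their bound). Vpreb3, which encodes a chain that binds the newly made receptor in precursor cells, stood at 516 against 1941 CPM in MGJ and at 252 against 1641 CPM in MGJ2. Lef1, a transcription factor of precursor cells, stood at 11.1 against 383 CPM and at 13.2 against 573 CPM, ratios of 0.029 (0.006 to 0.085) and 0.023 (0.015 to 0.034). Sox4, a factor needed for early B-cell development, stood at 92.2 against 327 CPM and at 60.4 against 440 CPM. Rag2, partner of the recombinase Rag1, had 0 and 15 UMIs in mature B barcodes and 29 and 238 in pro-B and pre-B barcodes. Rag1 is a gate gene and Rag2 is not. The pro-B and pre-B barcodes were chosen for UMIs of early genes, however, and the mature B barcodes for having none. The lower levels of other early genes therefore describe that choice and are no independent result.

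Expression of early genes was not absent from the mature set. Vpreb3 was detected in 36 of 77 barcodes in MGJ and in 127 of 483 in MGJ2, and Cd24a, the heat stable antigen that falls with maturation, in 27 and 212. Cd93, a marker of transitional B cells, was the exception of the list in MGJ, with 111 against 121 CPM and a ratio of 0.918 (0.576 to 1.43). In MGJ2, its ratio was 0.486, and it was 0.273 without the members rich in genes of other lineages. Macrophages and endothelial cells also express Cd93.

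Cell cycle genes were also lower than in pro-B and pre-B barcodes. In MGJ, 9 of 10 were at least 2-fold lower in mature B barcodes, and in MGJ2 10 of 10 were, with median ratios of 0.349 and 0.137. Stmn1, a regulator of microtubules in dividing cells, stood at 255 against 1127 CPM and at 167 against 1021 CPM. Top2a, the topoisomerase of dividing cells, stood at 192 against 438 CPM and at 65.6 against 610 CPM. It was found in 8 and 27 mature B barcodes, and the highest barcode held 15 of the 52 and 25 of the 139 UMIs. Hmgb2 was the gene that was less than 2-fold lower in MGJ, with a ratio of 0.560. Without the members rich in genes of other lineages, 10 of 10 were lower in MGJ, with a median ratio of 0.213. Against all other barcodes, 5 of 10 were at least 2-fold higher in MGJ (26.8% of all genes compared) and 0 lower. In MGJ2, 0 were higher and 3 lower. Against T cells, 2 of 10 were higher and 0 lower in MGJ (0 and 1 without those members), and 0 of 9 were higher or lower in MGJ2.

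**Figure D3:**
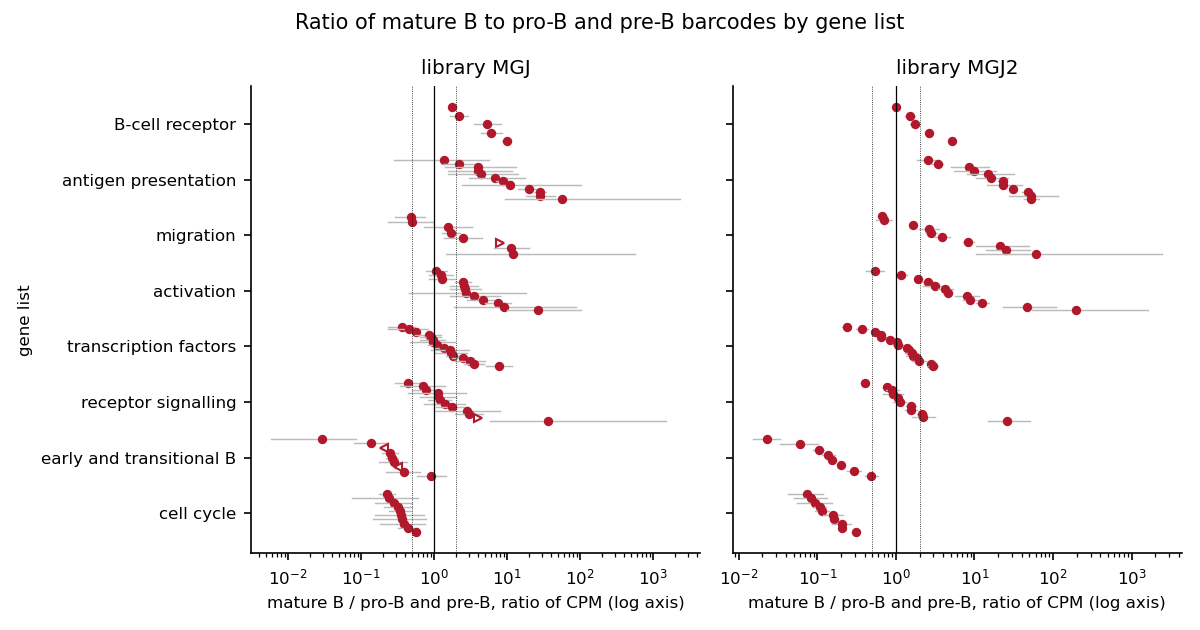
Ratio of CPM between mature B barcodes and pro-B and pre-B barcodes (log axis) for the compared genes of 8 lists in each library, 1 point a gene with its 95% interval in grey, open triangles for bounds where a set had 0 UMIs, a solid line at equal levels and dotted lines at 2-fold. Antigen presentation genes lie right of the solid line (median ratios 7.86 and 19.6), and early and cell cycle genes lie left of it (medians 0.249 and 0.349 in MGJ, 0.146 and 0.137 in MGJ2).

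Homing receptors separated the B-cell stages as well. Of the migration list, 4 of 8 compared genes were at least 2-fold higher and 2 at least 2-fold lower in mature B barcodes of MGJ, and 7 of 10 were higher and 0 lower in MGJ2. Without the members rich in genes of other lineages, 5 were higher and 0 lower in MGJ, and 6 higher and 0 lower in MGJ2. Ccr7, the receptor that guides lymphocytes to lymph nodes, stood at 350 against 31.0 CPM in MGJ and at 657 against 78.3 CPM in MGJ2. Cxcr5, the receptor for entry into B-cell follicles, stood at 44.3 CPM in MGJ, where pro-B and pre-B barcodes held 0 UMIs. With 3 UMIs set in place of 0, it was 8.08-fold higher, a value that leaves out the counting error of its own UMIs. In MGJ2, it stood at 139 against 5.45 CPM, a ratio of 25.4 (14.0 to 51.5). S1pr1, the receptor for exit from tissue into blood and lymph, was 2.48-fold and 2.81-fold higher. Cxcr4, the receptor that holds B-cell precursors in the marrow, had ratios of 1.71 and 1.67. Itga4, an integrin chain for adhesion to vessels and stroma, was lower, with ratios of 0.479 and 0.671.

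Against T cells, homing receptors were not on 1 side. In MGJ, 16.2% of 7829 genes compared were at least 2-fold higher in mature B barcodes and 15% at least 2-fold lower. In MGJ2, 13.4% of 7750 were higher and 8.75% lower. Of the migration list, 2 of 10 genes were at least 2-fold higher and 3 at least 2-fold lower in MGJ, and 4 were higher and 3 lower in MGJ2. Without the members rich in genes of other lineages, 4 were higher and 2 lower in MGJ2. Ccr7 stood at 79.7 and 266 CPM in T cells, and S1pr1 at 94.2 and 589 CPM. Antigen presentation genes, in contrast, were at least 2-fold higher than in T cells in 10 of 12 and 13 of 13 genes. In MGJ2, 12 of 13 were higher without the members rich in genes of other lineages.

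Signalling and transcription factor genes lay on both sides of the precursors. Of the receptor signalling list, 4 of 12 genes in MGJ and 3 of 11 in MGJ2 were at least 2-fold higher than in pro-B and pre-B barcodes, and 1 was lower in each. Over all genes compared with these barcodes, 15.4% were higher and 14.5% lower in MGJ, and 10.5% and 14.5% in MGJ2. The same shares apply to every list set against the precursors. Bank1, a scaffold of the receptor signal, was the gene with the highest ratio in MGJ2, at 155 against 5.95 CPM (ratio 26.1, interval 14.7 to 51.0). It stood at 66.4 CPM in MGJ, where the precursors held 1 UMI. Blnk, the adaptor that links the receptor to its downstream enzymes and whose promoter is printed above, was the lower gene of both libraries, at 125 against 289 CPM and 198 against 497 CPM. The genes that hold the octamer did not share a direction, since Vpreb3 and Blnk were lower in mature B barcodes, while Prkcb had ratios of 1.14 and 1.56, Il4ra 2.02 and 4.51, and Ccr6 had 2 UMIs in MGJ and 63 UMIs against 1 in MGJ2.

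Among 16 transcription factors, 4 were at least 2-fold higher and 2 at least 2-fold lower in MGJ, and 2 were higher and 2 lower in MGJ2. In MGJ2, both counts were near the shares over all genes, 10.5% higher and 14.5% lower. Without the members rich in genes of other lineages, 6 were higher in MGJ and 4 in MGJ2, and 2 were lower in each. Pou2f2, which encodes Oct-2, stood at 432 against 56.6 CPM in MGJ and at 526 against 188 CPM in MGJ2, ratios of 7.62 and 2.80. Klf2, a factor of resting lymphocytes, was 3.48-fold and 2.99-fold higher. Tcf3 (ratios 0.364 and 0.235) and Ikzf1 (0.456 and 0.371), both factors of early B-cell commitment, were the lower genes. Ebf1 and Pax5, which set and keep B-cell identity, were below the precursors by less than 2-fold, with ratios of 0.563 and 0.539 for Ebf1 and 0.842 and 0.653 for Pax5.

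Of the survival list, 3 of 7 genes were at least 2-fold higher than in the precursors and 0 lower in each library, with 1 lower in MGJ without the members rich in genes of other lineages. Of the co-receptors, 1 of 8 was higher and 1 lower in MGJ (3 and 0 without those members), and 4 of 9 were higher and 0 lower in MGJ2. Tnfrsf13c, which encodes the BAFF receptor that keeps naive B cells alive, stood at 243 against 93.1 CPM in MGJ and at 292 against 203 CPM in MGJ2. Bcl2, an inhibitor of cell death, was 4.88-fold higher in MGJ2 (2.83 to 8.93), and its 6 UMIs in MGJ gave 4.04 (0.863 to 24.96). Cr2, the complement receptor CD21, was detected in 45 of 483 barcodes in MGJ2, at 25.5 against 3.47 CPM, and in 1 of 77 in MGJ.

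Genes that mark later or other B-cell fates were counted next. Ighg1, Ighg3 and Ighe, constant regions of switched antibody classes, had 0 UMIs in both libraries, which allows up to 3 UMIs of each. Ighg2c, of another switched class, stood at 0 CPM in MGJ and 4.72 CPM in MGJ2. The 6 listed switched constant regions together stood at 0 and 404 CPM, of which Igha held 395 CPM in MGJ2. Igha, the constant region of IgA, had 0 UMIs in MGJ and 837 in MGJ2, of which 796 were in 1 barcode. The same was true of Jchain, with 407 of 424 UMIs in 1 barcode. Without the highest barcode, Igha stood at 19.5 CPM and Jchain at 8.08 CPM in MGJ2. Of the plasma cell list, 2 of 5 genes were at least 2-fold higher than in the precursors and 1 lower in MGJ, and 1 of 6 was higher (Jchain) and 1 lower in MGJ2. Of the marginal zone and B-1 list, 4 of 6 were higher and 1 lower in MGJ (3 and 1 without the members rich in genes of other lineages), and 2 of 5 were higher and 2 lower in MGJ2. Dtx1, a regulator of Notch signalling, stood at 55.3 against 9.13 CPM and at 104 against 37.2 CPM, while Cd5 was found in 2 and 8 barcodes.

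Activation genes were above the precursors. In each library, 9 of 12 were at least 2-fold higher in mature B barcodes, with median ratios of 2.67 and 4.40, and 0 were at least 2-fold lower. Without the members rich in genes of other lineages, 8 were higher and 1 (Jun) lower in MGJ2. Against all other barcodes, 3 of 12 were at least 2-fold higher and 4 lower in MGJ, with a median ratio of 0.986. In MGJ2, 5 were higher and 3 lower, with a median of 1.44. Against T cells, 5 were higher and 1 lower in MGJ, and 6 higher and 0 lower in MGJ2, with medians of 1.39 and 2.17. Cd83, a surface protein that rises on activated B cells, stood at 196 against 7.30 CPM in MGJ (ratio 26.8, interval 9.86 to 102) and at 802 against 64.0 CPM in MGJ2 (ratio 12.5, interval 10.5 to 15.1). Egr3, an immediate early factor of receptor signalling, had 9 UMIs in MGJ and 409 in MGJ2, where the precursors held 2. Nr4a1, another gene switched on by the receptor signal, stood at 77.5 against 21.9 CPM and at 385 against 43.6 CPM. Fos stood at 435 and 66.1 CPM and was in 10 and 44 barcodes, and in MGJ 43 of its 118 UMIs were in 1 barcode. In MGJ2, the ratio of Fos was 3.17 and fell to 1.12 without the members rich in genes of other lineages. Enzyme digestion is known to induce immediate early genes, and its part in these levels was not tested.

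Equal depth gave the same order for Cd74, Ccr7, Cd83 and Vpreb3. Each barcode was thinned to 1000 UMIs, which left out no mature B barcode in MGJ and 2 in MGJ2. Cd74 then had a UMI in 87.0% of mature B barcodes in MGJ and 95.4% in MGJ2, in 16.3% and 24.4% of pro-B and pre-B barcodes, and in 6.02% and 6.44% of neutrophil barcodes, which should have little of it. Neutrophil barcodes were those with at least 300 UMIs of S100a8, S100a9 and Retnlg per 10000 (3949 in MGJ and 1753 in MGJ2, with medians of 2123 and 3715 UMIs before thinning). Without thinning, it was in 97.4% and 98.6% of mature B barcodes. Ccr7 had a UMI in 31.2% and 45.1% of mature B barcodes and in 0% and 0.345% of neutrophil barcodes. Cd83 was in 20.8% and 38.3%, and in 0.320% and 2.70% of neutrophil barcodes. Vpreb3 was in 33.8% and 15.2% of mature B barcodes and in 87.8% and 79.3% of precursors.

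**Figure D4:**
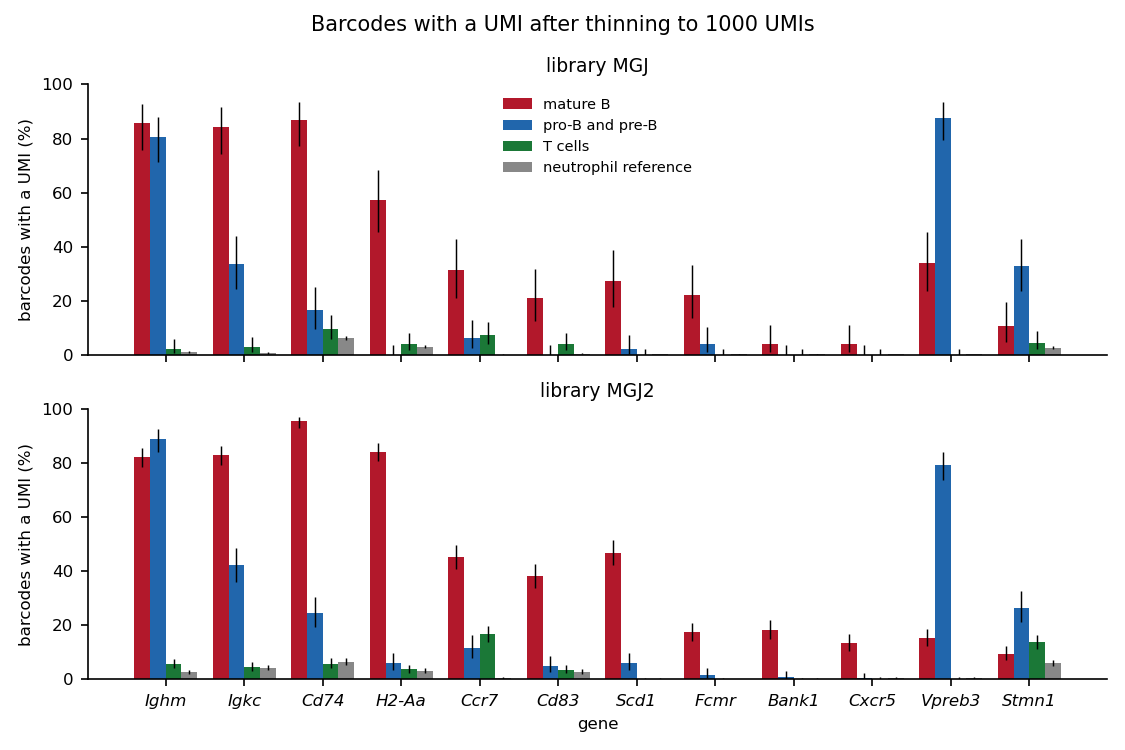
Share of barcodes with at least 1 UMI of 12 genes after each barcode was thinned to 1000 UMIs, in mature B, pro-B and pre-B, T cell and neutrophil barcodes, with exact 95% binomial intervals as lines. Cd74 reaches 87.0% and 95.4% of mature B barcodes, against 16.3% and 24.4% of pro-B and pre-B barcodes, and Vpreb3 shows the opposite order.

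Fcer2a is a gate gene, so a split of the members by it uses a value of the rule, and members without it passed on Ms4a1, Ighd or Cd22. The split is given as a description. Barcodes with a UMI of Fcer2a (94, median 3275 UMIs) were set against those without (389, median 3176 UMIs). Of 7601 genes compared, 3.17% were at least 2-fold higher with Fcer2a and 5.96% at least 2-fold lower. The early and transitional list summed to 489 CPM with Fcer2a and 935 CPM without, a ratio of 0.523 (0.449 to 0.606). Vpreb3 stood at 60.8 CPM with Fcer2a and at 299 CPM without, a ratio of 0.203 (0.130 to 0.304). The antigen presentation list summed to 23057 and 19239 CPM, a ratio of 1.20 (1.17 to 1.23), and the transcription factor list had a ratio of 1.02 (0.975 to 1.06). The migration list had a ratio of 1.07 (1.01 to 1.14), but 0.973 without the members of more than 10000 UMIs.

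The activation list had the highest ratio of the 7 list sums, and the cell cycle list the lowest. Activation genes summed to 6414 CPM in barcodes with Fcer2a and 2954 CPM in those without, a ratio of 2.17 (2.07 to 2.28), with 6 of 12 compared genes at least 2-fold higher and 0 lower. Egr1 stood at 437 against 84.9 CPM (ratio 5.15, interval 4.12 to 6.46), and was found in 16 of 94 and 38 of 389 barcodes. Myc stood at 520 against 103 CPM (ratio 5.05), and Cd69, an early activation protein that keeps lymphocytes in tissue, at 365 against 112 CPM (ratio 3.24). The cell cycle list had a ratio of 0.394, which moved to 0.648 without the members rich in other lineages or above 10000 UMIs. In MGJ, 6 barcodes had Fcer2a, and 24.5% of 6876 genes were at least 2-fold higher and 40% at least 2-fold lower in them. Their early and transitional list had a ratio of 0.228 (0.083 to 0.501), their antigen presentation list 1.60 (1.43 to 1.79), and their activation list 0.813 (0.582 to 1.11). These intervals cover counting error over 6 barcodes and do not serve to compare the libraries.

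Myc (chr15:61985391-61990374, plus strand), a driver of growth after activation, picked out a smaller set, which was chosen after its values were seen and is a description. It was detected in 63 of 483 mature B barcodes of MGJ2 and in 3 of 77 of MGJ, and no barcode held more than 27 of its 390 UMIs in MGJ2. Of 7688 genes compared there, 10.3% were at least 2-fold higher in barcodes with Myc and 10.8% at least 2-fold lower. With the 3 barcodes of MGJ, 31.9% of 7252 genes were higher and 34.7% lower, and that split is not described further. Barcodes with Myc in MGJ2 were deeper, with a median of 3964 against 3136.5 UMIs. One of them was the Col10a1-rich barcode, so ratios are also given for members with at most 10000 UMIs and few UMIs of other lineages (58 with Myc and 378 without).

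Genes of receptor activation were high in the Myc barcodes. Egr3 stood at 828 CPM with Myc and 72.4 CPM without (ratio 11.4, interval 9.24 to 14.2, and 11.9 in the stricter set), and was found in 39 of 63 and 48 of 420 barcodes. Nr4a1 stood at 1336 against 204 CPM (ratio 6.54, and 7.49 in the stricter set). Irf4, a factor that rises with the strength of the receptor signal, stood at 1037 against 165 CPM and was found in 55 of 63 and 114 of 420 barcodes. Cd83 stood at 1862 against 601 CPM, in 61 of 63 and 242 of 420 barcodes. The migration receptors Gpr183 (287 against 46.0 CPM) and Cxcr5 (361 against 96.6 CPM), which place activated B cells in and around follicles, were also higher.

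Several other named genes were lower in the same barcodes, and were picked after their values were seen. Of the migration list, 3 of 10 genes were at least 2-fold higher with Myc and 5 at least 2-fold lower, and of the transcription factors 1 of 16 was higher and 4 lower. S1pr1 stood at 85.7 CPM with Myc and 322 CPM without (ratio 0.266, interval 0.176 to 0.386), and its ratio was 0.265 in the stricter set. Klf2, known to drive S1pr1, stood at 142 against 411 CPM. Ighd stood at 502 against 1031 CPM (ratio 0.487), and as a gate gene it is part of the choice of members. Cd74 was nearly level, at 9269 against 10212 CPM (ratio 0.908, and 0.991 in the stricter set).

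**Figure D5:**
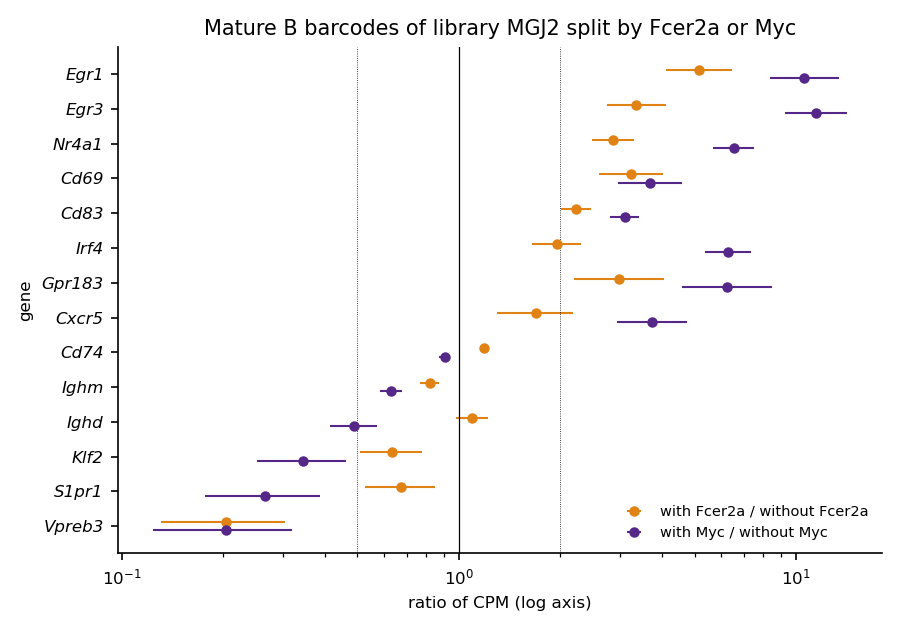
Ratio of CPM (log axis) for 14 genes between mature B barcodes of MGJ2 with and without a UMI of Fcer2a (orange, 94 and 389 barcodes) or of Myc (purple, 63 and 420 barcodes), with 95% intervals as lines and dotted lines at 2-fold. Egr1, Egr3 and Nr4a1 lie right of the 2-fold line in both splits (Egr3 at 3.36 and 11.4), and Klf2 and S1pr1 lie left of the solid line (S1pr1 at 0.672 and 0.266).

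Cytokine and bone factor genes were at or above the precursors in part. Of those compared, 3 of 6 were at least 2-fold higher and 0 lower in MGJ, and 3 of 7 were higher and 0 lower in MGJ2, where 3 were higher and 2 lower without the members rich in genes of other lineages. Against T cells, 1 of 7 was higher and 2 lower in MGJ, and 5 of 7 were higher and 0 lower in MGJ2. Without those members, 3 were higher and 2 lower than in T cells of MGJ2. Ltb, a cytokine with which B cells organise lymphoid tissue, stood at 229 against 53.0 CPM in the precursors of MGJ and at 283 against 55.0 CPM in those of MGJ2. Tnfsf11, which encodes the osteoclast factor RANKL, had 0 UMIs in both libraries. Tnfrsf11b, which encodes its decoy receptor osteoprotegerin, had 0 UMIs in MGJ and 89 in MGJ2, of which 86 were in 1 barcode. Ccl3 and Ccl4, chemokines of activated lymphocytes and myeloid cells, stood at 1107 and 1096 CPM in MGJ, in 18 and 17 barcodes, and at 58.5 and 145 CPM in MGJ2. The highest barcode held 95 of 300 Ccl3 UMIs and 74 of 297 Ccl4 UMIs in MGJ, and 49 of 124 and 84 of 308 in MGJ2. Tnf stood at 417 CPM in MGJ, but 47 of its 113 UMIs were in 1 barcode and it was found in 7. Il10, the cytokine of regulatory B cells, had 1 UMI and 31 UMIs, 21 of these in 1 barcode.

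Piezo1, the mechanosensitive ion channel, stood at 40.6 CPM in mature B barcodes of MGJ (11 UMIs in 9 barcodes) and at 36.3 CPM in those of MGJ2 (77 UMIs in 59 barcodes). Its level over all other barcodes was 90.0 and 54.3 CPM, ratios of 0.451 and 0.669. After thinning to 1000 UMIs, Piezo1 had a UMI in 5.19% and 2.49% of mature B barcodes and in 2.16% and 1.55% of neutrophil barcodes, so it was near the level of a single UMI. Apoe, which encodes apolipoprotein E, stood at 284 and 412 CPM in mature B barcodes and at 1412 and 668 CPM in all other barcodes. It was found in 27 of 77 and 159 of 483 barcodes. Against the precursors, Apoe was lower in MGJ (1903 CPM there, ratio 0.149, interval 0.117 to 0.188) and higher in MGJ2 (35.2 CPM there, ratio 11.7, interval 9.19 to 15.1, and 5.77 without the members rich in genes of other lineages). Piezo1 had ratios to the precursors of 2.22 (0.857 to 5.84) and 2.44 (1.58 to 3.86), and to T cells of 1.16 and 1.13. After thinning, Apoe had a UMI in 15.6% and 16.4% of mature B barcodes, in 6.12% and 0.826% of precursors and in 8.95% and 3.62% of neutrophil barcodes. In MGJ, the order of mature B barcodes and precursors in these shares was opposite to that of their summed Apoe levels. The lower summed ratio there is therefore not a lower share of barcodes with Apoe.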

How the data were processed

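Calluses of wild-type mice were captured as 2 libraries with 10x 3′ V3 chemistry. Per the file headers, the authors made the UMI counts with Cell Ranger 4.0.0, and the processing notes name GRCm38 and Seurat. The deposited counts are whole UMIs per gene and barcode, not normalized, and the filters that chose the barcodes are not given in the sources used here.

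Barcodes with at least 200 genes and at most 20% mitochondrial UMIs were kept. Mature B barcodes were chosen by counts of 13 gate genes, and the members and gene lists were chosen with earlier results of these data known. UMIs were summed over each set and divided by the total of the set (CPM), with exact Poisson intervals for levels, exact conditional intervals for ratios and Clopper-Pearson intervals for shares, all at 95% and for counting error only. A bound against 0 UMIs rests on 3 UMIs over the set. Genes at a mean of at least 10 CPM were compared for a 2-fold difference. With no day in the labels and each library 1 sample, no statistical test was run and no p-value is given. Genes named were those of the lists and, per library, the 10 highest against all other barcodes and the 10 highest and lowest against pro-B and pre-B barcodes, of which some are given. Gate genes and immunoglobulin V, D and J segments were left out of these rankings. The Myc split, the activation, cell cycle and signalling sums within splits, and the Y box were added after values were seen.

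Doublets were called with Scrublet (scanpy 1.11.5), which marked 0 barcodes in library MGJ, where it did not work, and 223 (2.86%) in library MGJ2, 29 of them mature B barcodes. These were kept in the values reported. Promoters were taken from RefSeq and positions from GENCODE M21, both on GRCm38, and 99.6% of the gene IDs were in GENCODE. Scripts used Python 3.11.15, numpy 2.4.6 and scipy 1.17.1, and were tested on simulated data. Alternatives changed the quality limits, the gates, the filter on low levels, the weighting of barcodes and the treatment of doublets. Some listed genes are not reported here.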

Additional observations from a re-analysis of the deposited data

How the results depend on the processing

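No paired analysis was possible because each library is a single sample with no group, and no result comes from a test. Of the values that answer a comparison, 206 stayed within their interval or within 1.5 times the count under the alternatives, 27 moved and 1 reversed. For the named genes, 1137 stayed, 263 moved and 5 reversed. The cause of these moves was not tested unless the setting itself gives it.

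Without the filter on low levels, more genes entered the count. In MGJ, 3704 genes were then higher and 13735 lower than in all other barcodes, 3026 and 3501 against pro-B and pre-B barcodes, and 2982 and 4008 against T cells. In MGJ2, the counts were 2747 and 9959, 2987 and 3793, and 3271 and 3479. The counts with the filter were 2123 and 1433, 1229 and 1161, and 1266 and 1175 in MGJ, and 1195 and 1130, 849 and 1171, and 1041 and 678 in MGJ2. With every barcode weighted equally, 1865 genes were higher than in all other barcodes of MGJ2 and 564 higher than in pro-B and pre-B barcodes.

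With at least 3 UMIs in the second gate, the share of mature B barcodes was 0.401% in MGJ and 5.55% in MGJ2, and with at least 5 UMIs of Cd79a and Cd79b it was 5.15% in MGJ2. The antigen presentation ratio with against without Fcer2a was 1.42 and 1.11 in libraries MGJ and MGJ2 under the first of these gates, 1.24 in MGJ2 under the other, 1.27 in MGJ without members rich in other lineages, and 1.30 in MGJ2 without the doublet calls, where the transcription factor ratio was 1.09. Leaving out members over 10000 UMIs, chosen after seeing the data, gave 1.33 and 1.11 for antigen presentation, and the migration ratio of MGJ2 reversed to 0.973. Thinned to 2000 UMIs, Cd83 was in 52.3% and Ccr7 in 61.2% of mature B barcodes of MGJ2.

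Tnf in MGJ reversed against all other barcodes to 0.370 with equal weights and 0.359 with at least 3 UMIs in the second gate, and against pro-B and pre-B barcodes to 0.430 under that gate. Jchain in MGJ2 reversed against all other barcodes to 1.02 with at least 5 UMIs of Cd79a and Cd79b and 1.04 without members rich in other lineages. The lambda share stayed between 10.3 and 16.4% in MGJ and between 13.1 and 15.7% in MGJ2. Leaving out doublet calls gave no value in MGJ, where there were none. With 77 barcodes, genes near 10 CPM rested on about 3 UMIs in MGJ.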
